A study of Mus musculus with 816 samples.

Results

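Cultures of primary mouse microglia that had been kept with polyIC alone for 72 h were compared with untreated cultures of the same duration. They were picked by their labels (treatment IC, 72 h), and no measured value entered the choice. They numbered 6 of the 816 samples of the series, and 25 untreated cultures at 72 h served as their controls. PolyIC is a synthetic double-stranded RNA, and the study applied a high molecular weight preparation at 0.2 µg/µl. Expression was measured by sequencing the 3′ ends of transcripts, and a value is given as CPM, the reads of a gene per 1000000 mapped reads of that culture. A CPM is not divided by transcript length, so levels were compared between cultures and not between genes.

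Every culture used here was a well of commercial neonatal mouse microglia, with no transgene or deletion, and the stimulus was added 4 days after plating. Further groups were 8 cultures with polyIC for 24 h and 40 untreated cultures at 24 h. At 72 h they were 7 cultures with IFNa at 0.0008 µg/µl, 4 with IFNb at 0.0001 µg/µl, 6 with P3C at 0.001 µg/µl, 11 with low LPS at 0.00001 µg/µl, and 7 with low LPS and polyIC together. IFNa and IFNb are type I interferons, P3C is another Toll-like receptor ligand, and LPS is the lipopolysaccharide of Gram-negative bacteria. Commercial cells grown alone in plastic lack the neurons, astrocytes and blood vessels of the brain, and the labels do not say which wells came from separate animals, so p-values describe the spread between wells.

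Double-stranded RNA is a product of many replicating viruses. It is detected in endosomes by TLR3, which signals through Ticam1, and in the cytosol by the helicases encoded by Ddx58 and Ifih1, which signal through Mavs. Both routes activate Irf3, Irf7 and NF-kB and lead to the release of type I interferons and chemokines. Interferon then binds its receptor on the same and on neighbouring cells, a complex that holds Stat2 and Irf9 binds the interferon-stimulated response element (ISRE), and many antiviral genes are transcribed. In the brain, microglia are a main cell type that mounts this response.

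The 6 polyIC cultures did not share a setting. Replicates 1 and 2 were edge wells of plate B, replicates 3, 4 and 5 were middle wells of plate D, and replicate 6 was an edge well of plate D, in the library pool of the untreated wells of that plate. On plate B the 10 untreated cultures were middle wells, so well position and treatment cannot be told apart there. On plate D the 5 untreated cultures were edge wells, and replicate 6 was the only polyIC culture that shared an edge position with them. On plate B polyIC replicate 2 and untreated replicate 10 stood apart from their groups, with 95.5 and 1538 CPM of the interferon-induced gene Ifit3. Both were kept as labelled, and whether the wells had been exchanged was not tested. Without both, 225 genes passed as higher and 554 as lower in the comparison with untreated cultures, in place of 96 and 245. Without replicate 2 alone the counts were 228 and 605, and without untreated replicate 10 alone 94 and 231. These 2 cultures were picked after their values were seen, so the counts do not bear on an exchange of wells. The remaining untreated cultures were on plates A and C. Depth ran from 1.28 to 5.70 M mapped reads in polyIC cultures (M for 1000000) and from 1.45 to 14.4 M in untreated ones. Replicate 6 was the shallowest of the 6 and had the fewest genes above 5 CPM, 6587. The 8 microglial markers were detected in both groups and summed to 8600 to 17827 CPM with polyIC and 7910 to 19934 CPM without. Markers of astrocytes, neurons, lymphocytes, neutrophils, red cells and fibroblasts summed to at most 60.5 CPM in any of the 31 cultures. Those of the oligodendrocyte lineage reached 96.7 CPM with polyIC and 87.4 CPM without, with Mog and Olig2 at 0 in all 31. The 6 markers of endothelial cells and pericytes summed to 33.2 to 213 CPM with polyIC and 21.2 to 69.1 CPM without. In replicates 3 to 6 the sum was 124 to 213 CPM, and in replicates 1 and 2 it was 34.2 and 33.2 CPM. Cldn5 and Pdgfrb were listed at 0 in all 31 cultures and Cdh5 in all 6 polyIC cultures, so the sum with polyIC came from Flt1, Pecam1 and Rgs5. Whether such cells were present was not tested.

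At 72 h polyIC cultures held more RNA of the chemokine gene Ccl5, of the transcription factor gene Irf7 and of a set of antiviral genes than untreated cultures, and less RNA of a larger and more varied set of genes. Among 11052 genes tested, 96 were higher and 245 lower by at least 2-fold at an adjusted p of 0.05, or 0.869% and 2.22% of those tested (limma on log2(CPM + 1), Benjamini-Hochberg adjustment over all genes). The median log2 difference over all genes was -0.28, so a gene with no difference on this scale sat slightly above the bulk. No gene separated the groups: for 0 genes, 0% of those tested, did all 6 polyIC cultures lie above or below all 25 untreated ones. In bulk RNA, fewer cells of a type and less RNA per cell cannot be told apart. The count depended on single cultures. It was 833 without replicate 2, 784 without replicate 1, 225 without replicate 3, 244 without replicate 4, 193 without replicate 5 and 181 without replicate 6. In all 6 of these fits 28 of the higher and 53 of the lower genes passed. The fits held no plate term, and the 53 include Mt2, which was higher on plate B and lower on plate D. With plate as a term 54 of the 96 higher and 126 of the 245 lower genes passed. A rank-sum test over all genes with the same adjustment called 0 genes, and 1541 had an unadjusted p under 0.05 in it. With 6 against 25 cultures the p of that test has a floor, but no gene reached it, since none separated the groups. By ranks no gene passed, and 0 calls after adjustment over 11052 genes do not by themselves show that differences were absent.

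**Figure D1:**
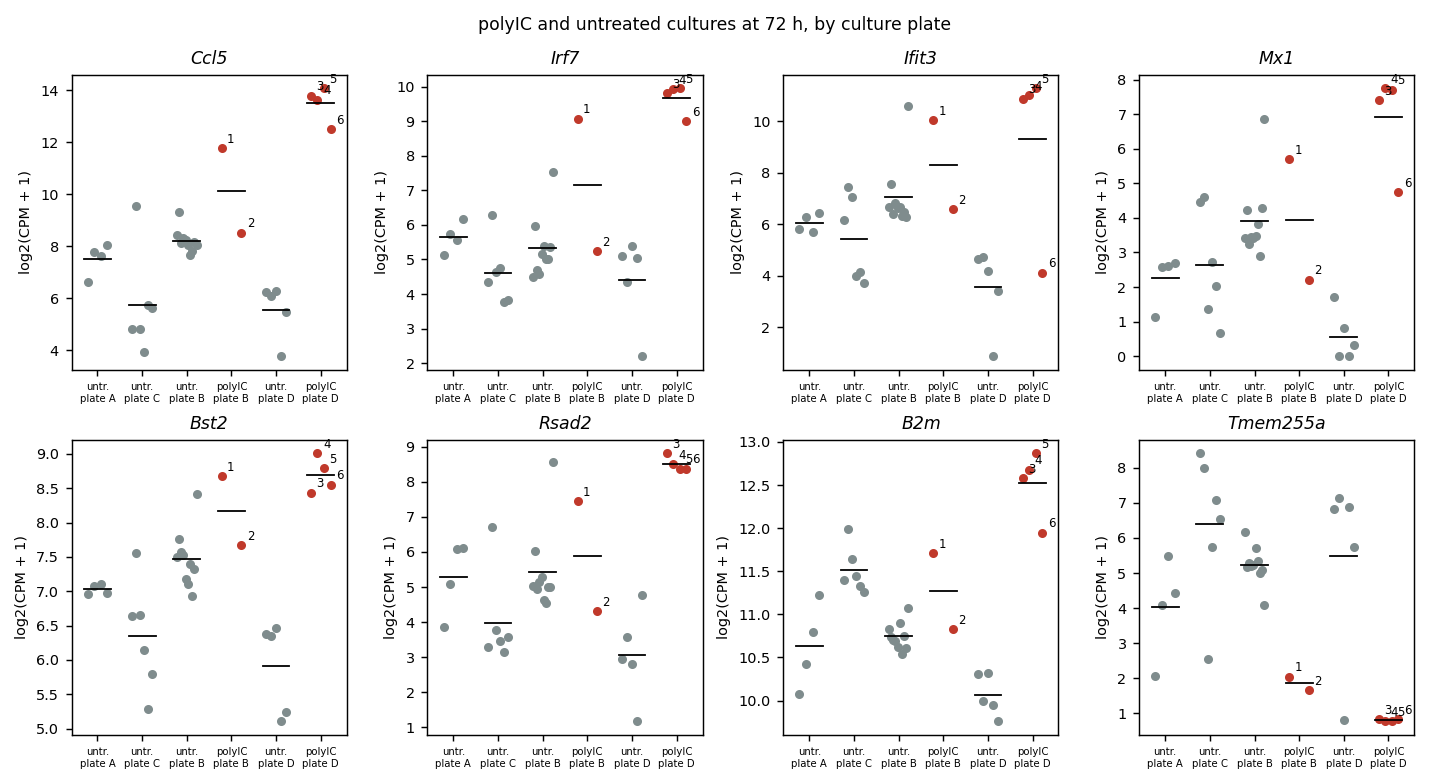
Level of 8 genes in each 72 h culture, as log2(CPM + 1) on the vertical axis, by culture plate on the horizontal axis. Grey points are untreated cultures, red points are the polyIC cultures with their replicate number, and lines are means. Replicate 2 lies among the untreated cultures of plate B for Irf7 and Ifit3 and below them for Mx1 and Rsad2, and the untreated cultures of plate D lie below those of plate B for most of the antiviral genes.

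Ccl5, which encodes a chemokine that draws T cells and monocytes, had the largest rise. It lies on chromosome 11 (83525778 to 83530518, minus strand, GRCm38). Replicates 1 to 6 held 3487, 365, 14078, 12672, 17351 and 5782 CPM, and untreated cultures held 12.7 to 753 CPM with a median of 199.6 CPM. Thus 5 of 6 polyIC cultures were above every untreated culture, and only replicate 2 fell inside the untreated range. The log2 difference was 5.39 ± 0.70 (SE), with an adjusted p of 2.98e-05, and the gene passed under all 13 other settings of the limma fit, which are the alternatives counted below. The difference from the untreated cultures of the same plate was 1.93 on plate B and 7.93 on plate D.

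Irf7, the transcription factor that amplifies interferon production, lies on chromosome 7 (141262706 to 141266481, minus strand, GRCm38). Its levels were 537, 36.9, 895, 975, 996 and 510.3 CPM in replicates 1 to 6 and 3.6 to 185 CPM in untreated cultures, with a median of 31.7 CPM. The picture was that of Ccl5, with 5 cultures above all untreated ones and replicate 2 close to the untreated median. The log2 difference was 3.82 ± 0.51, adjusted p = 2.98e-05, and it passed under all 13 limma alternatives. Xaf1, an interferon-induced gene linked to cell death (chromosome 11, 72301629 to 72313733), rose by 3.18 ± 0.58, adjusted p = 0.00136. Its levels were 92.2, 29.7, 339, 457, 416 and 34 CPM against 1.22 to 72.7 CPM, so that replicates 2 and 6 lay inside the untreated range.

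The genes of the antiviral effector list encode proteins that block viral entry, translation or replication. Of the 25 listed, 23 were tested and 15 were higher and 0 lower, with a median log2 difference of 2.50 against -0.28 over all genes. The 15 became 19 without replicate 2 and 9 without replicate 3 or replicate 5, and 15 passed with plate as a term. Oasl1, which restrains Irf7 translation, rose by 3.90 ± 0.74 (adjusted p = 0.00226). Its levels were 47.8, 15.9, 352, 373, 457 and 143 CPM, against 0 to 137 CPM without polyIC. Here 4 cultures exceeded every untreated one and replicates 1 and 2 did not.

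Ifit3, which helps to hold back viral RNA that lacks a methylated cap, showed how unlike the cultures were. Replicates 1 to 6 held 1053, 95.5, 1891, 2058, 2519 and 16.4 CPM, and untreated cultures 0.835 to 1538 CPM with a median of 77.4 CPM. The 3 middle wells of plate D were above all untreated cultures, while replicate 6 on the same plate and replicate 2 on plate B were at untreated levels. The log2 difference was 3.19 ± 0.85, adjusted p = 0.0292, and it passed in 7 of 13 alternatives. The highest untreated value, 1538 CPM, came from a single well of plate B (untreated replicate 10). The nearby copy Ifit3b rose by 3.33 ± 0.68, adjusted p = 0.00435, and reads of the pair may have been assigned to either.

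Mx1, a dynamin-like GTPase that traps viral nucleocapsids, rose by 3.25 ± 0.76 (adjusted p = 0.0122) on chromosome 16 (97447035 to 97462907). Its levels were 50.9, 3.62, 169, 215, 208 and 25.8 CPM with polyIC and 0 to 116 CPM without. Again only the middle wells of plate D exceeded the whole untreated range. Rsad2, which makes a chain-terminating nucleotide, held 174, 18.8, 449, 362, 329 and 329.7 CPM against 1.25 to 379 CPM, a log2 difference of 3.05 ± 0.65 (adjusted p = 0.00544). In contrast to Ifit3, Rsad2 in replicate 6 was as high as in the middle wells of its plate. Bst2, which tethers budding virions and was chosen here after its values were seen, held 409, 203, 346, 515, 441 and 375 CPM against 33.4 to 342 CPM. All but replicate 2 were above every untreated culture, and the log2 difference of 1.71 ± 0.34 (adjusted p = 0.00363) passed under all 13 alternatives.

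Promoter sequences of 5 genes called higher were read for the ISRE, the element bound by the complex that holds Stat2 and Irf9. They come from the RefSeq promoter table for GRCm38.p6 and are the 200 bases before the annotated start, 5′ to 3′ on the gene's strand, with matches to the ISRE core (GAAA, any 2 bases, GAAA), on either strand, in capitals.
Ifit3, plus strand, chr19:34583329-34583528: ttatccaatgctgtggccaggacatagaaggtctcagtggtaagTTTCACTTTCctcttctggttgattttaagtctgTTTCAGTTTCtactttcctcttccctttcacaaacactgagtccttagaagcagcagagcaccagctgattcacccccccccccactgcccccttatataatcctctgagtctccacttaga
Isg15, minus strand, chr4:156200819-156201018: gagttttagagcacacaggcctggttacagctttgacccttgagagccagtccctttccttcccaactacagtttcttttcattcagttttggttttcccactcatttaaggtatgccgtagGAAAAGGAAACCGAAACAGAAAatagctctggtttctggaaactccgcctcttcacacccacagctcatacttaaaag
Rsad2, minus strand, chr12:26456453-26456652: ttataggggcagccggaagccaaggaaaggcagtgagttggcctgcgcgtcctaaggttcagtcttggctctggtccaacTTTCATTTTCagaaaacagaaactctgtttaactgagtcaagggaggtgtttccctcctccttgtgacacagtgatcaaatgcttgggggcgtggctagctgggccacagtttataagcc
B2m, plus strand, chr2:122147487-122147686: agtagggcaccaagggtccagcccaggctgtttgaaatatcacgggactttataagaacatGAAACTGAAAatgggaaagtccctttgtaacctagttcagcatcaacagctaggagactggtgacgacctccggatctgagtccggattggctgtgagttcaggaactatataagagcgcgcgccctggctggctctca
Irf7, minus strand, chr7:141266425-141266624: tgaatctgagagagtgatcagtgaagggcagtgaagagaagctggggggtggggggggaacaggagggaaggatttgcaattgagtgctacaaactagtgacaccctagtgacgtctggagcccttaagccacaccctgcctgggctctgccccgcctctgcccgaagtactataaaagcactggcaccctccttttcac

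The Ifit3 window held 2 separate matches, starting 156 and 122 bases before the start. The Isg15 window held 3 overlapping ones between 78 and 66 bases before it, and Rsad2 and B2m held 1 each. The Irf7 window held no match. The start used lay 75 bases from the 5′ limit of the RefSeq gene for Irf7 and 410 bases from it for Ifit3. Of the 96 genes called higher, 54 had an entry in the table, and 18 of these, 33.3%, had an ISRE core within 250 bases before the start. The share was 3.36% among the 7943 tested genes with an entry, 3.45% among the 174 lower genes and 2.98% among all 32851 promoters of the same length. The 18 included Ifit3, Isg15, Rsad2, B2m, Bst2, Stat2, Irgm1 and Ifi205. The kB-like core (GGGA, any 4 bases, CC) was found in 29.6% of the 54 and in 25.8% of the tested genes, and the GAS core (TTC, any 3 bases, GAA) in 11.1% and 6.91%. A match to letters is a description of the sequence and does not show that a protein bound there.

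The receptors and adaptors that detect double-stranded RNA mostly did not pass. Of 14 tested, 2 were higher and 0 lower, with a median log2 difference of 0.14, and 1 was higher without replicates 3, 4 or 5 in turn. Zbp1, a sensor of left-handed nucleic acid that can trigger necroptosis, held 38, 26, 238, 302, 268 and 79.7 CPM against 0.25 to 70.1 CPM, and rose by 3.20 ± 0.63 (adjusted p = 0.00315). Its 4 cultures of plate D lay above all untreated ones and both of plate B inside. Dhx58, a helicase that tunes the cytosolic route, rose by 2.20 ± 0.55 (adjusted p = 0.0187) and passed in 7 of 13 alternatives. TLR3 itself was low and did not pass, with Tlr3 at 11.2, 5.79, 13.3, 16.3, 52.3 and 0.781 CPM against 0 to 35.7 CPM (adjusted p = 0.643). Neither did Ifih1 (log2 difference 1.51 ± 0.54, adjusted p = 0.105) or Ddx58 (1.11 ± 0.60, adjusted p = 0.296). These last 3 were named after their values were seen.

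None of the 10 interferon genes listed was above 0 in any polyIC culture at 72 h, Ifnb1 included, so the ligand RNA was not detectable at this depth. Stat2, a subunit of the complex that binds the ISRE, rose by 1.67 ± 0.44 (adjusted p = 0.0273, passing in 6 of 13 alternatives), whereas Irf9, which belongs to the same complex, missed the threshold at 1.08 ± 0.35 (adjusted p = 0.0736). Of the 6 interferon regulatory factors tested, Irf7 was higher and Irf3 lower. Irf3, which is usually activated by phosphorylation and not by transcription, held 56.7, 30.4, 72.5, 38.9, 49.3 and 0.781 CPM against 33.7 to 188 CPM, a fall of 1.53 ± 0.43 (adjusted p = 0.041) that was lost without replicate 4 or replicate 6 and with plate as a term. Usp18, which limits signalling at the interferon receptor, was the single higher gene of 7 feedback regulators, at 2.42 ± 0.59 (adjusted p = 0.016), lost without replicate 5.

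Other interferon-induced families took part unevenly. In the Ifi200 and Schlafen families 5 of 11 tested were higher and 0 lower, which became 8 without replicate 2 and 3 without replicates 3, 4 or 5 in turn. Mnda, a nuclear DNA-binding protein, held 279, 50, 950.2, 852, 821 and 348 CPM against 34.4 to 348 CPM (2.50 ± 0.40, adjusted p = 0.00032), and Ifi205 rose by 3.27 ± 0.66 (adjusted p = 0.00397). In the immunity-related GTPases and guanylate-binding proteins, which attack vacuoles that hold pathogens, 2 of 11 were higher, Irgm1 (2.27 ± 0.41, adjusted p = 0.00123) and Gbp9 (1.89 ± 0.55, adjusted p = 0.0461). The count for this family was 5 without replicate 2 and 1 without replicate 4 or replicate 5. Isg15 itself is counted with the antiviral effectors. Among 12 enzymes that attach ISG15, ubiquitin or ADP-ribose 1 was higher, Dtx3l at 1.78 ± 0.52 (adjusted p = 0.0492). That count was 3 without replicate 1, 4 without replicate 2, 2 without replicate 6 and 0 without replicates 3, 4 or 5. Members of the Ifi200, Schlafen and GTPase families are near copies of each other, and reads may have been divided between them.

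Antigen presentation by MHC class I rose in part. Of 17 genes 4 were higher and 0 lower, with a median of 0.85, and the count was 6 without replicate 1, 8 without replicate 2 and 2 without replicate 5. B2m, the light chain shared by all class I molecules, held 3343, 1815, 6107, 6555, 7482 and 3953 CPM against 865 to 4073 CPM, and its log2 difference of 1.33 ± 0.26 (adjusted p = 0.00315) passed in all 13 alternatives. Only the middle wells of plate D were above every untreated culture. Psmb8, a subunit of the immunoproteasome, held 129.9, 117, 412, 401, 515 and 434 CPM against 43.4 to 175 CPM, and rose by 1.53 ± 0.27 (adjusted p = 0.00123). All 4 cultures of plate D were above the untreated range and both of plate B inside it. The heavy chain H2-K1 rose by 1.32 ± 0.31 (adjusted p = 0.0132) and the non-classical H2-T23 by 1.86 ± 0.53 (adjusted p = 0.0412). Among the 15 largest rises were also the Qa-2 genes H2-Q7 (2.92 ± 0.64, adjusted p = 0.00792) and H2-Q6 (2.90 ± 0.62, adjusted p = 0.00537), near copies whose reads cannot be separated with certainty. None of 5 class II genes tested passed.

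Complement C3 and the Fc receptor gene Fcgr1 were the 2 higher genes of 14 tested in the complement and Fc list. C3 held 8.93, 1.45, 17.7, 42.8, 31.7 and 23.4 CPM against 0 to 9.33 CPM, a log2 difference of 2.56 ± 0.57 (adjusted p = 0.00932). The 4 cultures of plate D were above all untreated cultures, and the 2 of plate B were not. Fcgr1, the high-affinity receptor for IgG, rose by 1.84 ± 0.38 (adjusted p = 0.00503). The scavenger receptor gene Msr1 rose by 1.03 ± 0.21 (adjusted p = 0.00375), with 543, 398, 752, 926, 892 and 525 CPM against 134 to 462 CPM, so that all but replicate 2 lay above the untreated range. The remaining 3 named rises included Gm4955 (2.92 ± 0.70, adjusted p = 0.014) and Pydc4 (2.85 ± 0.82, adjusted p = 0.0438, passing in 4 of 13 alternatives), with means of 58.8 and 62.4 CPM with polyIC. The third was the carboxylesterase gene Ces5a (2.84 ± 0.64, adjusted p = 0.00932), which was at 118 or more CPM in replicates 3 and 6 and at 10.2 CPM or less in the others.

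Chemokines other than Ccl5 and the inflammatory cytokines did not pass. Of 12 chemokine genes tested 1 was higher. Cxcl10, an interferon-induced chemokine named after its values were seen, was at 5.81, 2.89, 1.93, 0.351, 1.79 and 0 CPM with polyIC and at 0 to 28.1 CPM without. None of 10 inflammatory cytokine genes tested rose or fell in the limma fit. Tnf held 31.3, 65.8, 50.9, 188, 14.5 and 89.9 CPM against 0.209 to 123 CPM, with its log2 difference at 0.81 ± 0.66 and its adjusted p at 0.504. Il1b was at most 4.47 CPM with polyIC and 10.4 CPM without. Of 15 NF-kB genes tested 0 were higher and 2 lower, against 2.22% lower over all genes. They were Rel (-2.09 ± 0.59, adjusted p = 0.0408) and Nfkb1 (-1.39 ± 0.36, adjusted p = 0.0232). Rel held 9.82, 5.06, 62.5, 0, 1.4 and 0 CPM against 3.07 to 54.9 CPM, so replicate 3 was above every untreated culture. Nfkb1 held 10.2 to 114 CPM against 34.4 to 236 CPM. The count of lower genes in this list was 3 without replicate 1, 1 without replicates 3, 4 or 5 in turn and 0 without replicate 6.

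**Figure D2:**
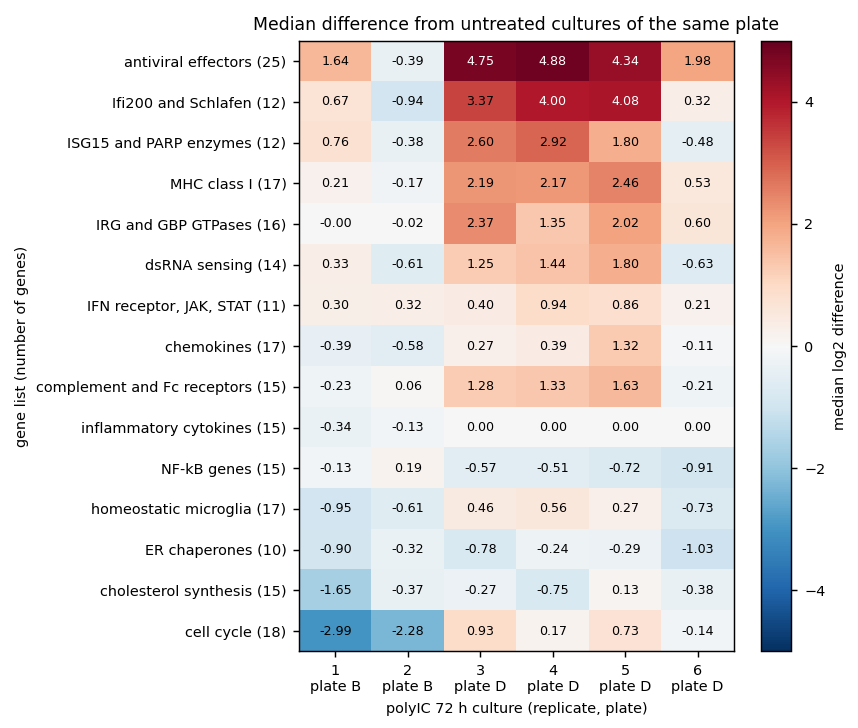
Median log2(CPM + 1) difference of 15 gene lists (vertical axis) in each of the 6 polyIC cultures (horizontal axis) from the mean of the untreated cultures on the same plate, shown as colour. Antiviral effectors stood at 4.75, 4.88 and 4.34 in replicates 3, 4 and 5, at 1.64 and 1.98 in replicates 1 and 6, and at -0.39 in replicate 2.

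The heat map of lists by culture shows wide differences between replicates, both in the interferon lists and in the cell cycle genes, whose medians ran from -2.99 to 0.93. For the antiviral effectors the median difference from the untreated cultures of the same plate was 1.64 in replicate 1 and -0.39 in replicate 2 on plate B. On plate D it was 4.75, 4.88 and 4.34 in the 3 middle wells and 1.98 in replicate 6. Of the 25 genes, 24 in each middle well were above every untreated culture of the plate, against 14 in replicate 6, 9 in replicate 1 and 0 in replicate 2. Over all tested genes those shares were 15.6% and 15.1% in replicates 1 and 2, 21.9%, 22.9% and 20.9% in the middle wells and 19.6% in replicate 6. MHC class I genes followed the same order, with medians of 2.17 to 2.46 in the middle wells and 0.53, 0.21 and -0.17 in replicates 6, 1 and 2. Untreated cultures of plate D also started lower, with a median of 0.24 CPM of Mx1 on plate D and 10.1 CPM on plate B. The parts of plate, well position, pool and depth in these differences were not tested apart from the plate and pool terms.

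The lower genes belonged to no single list. Of the sets of co-expressed genes that the study defined on samples of this series, TQ_green held 9 lower and 0 higher of 49 tested. TQ_red held 6 lower and 0 higher of 40. Over all genes tested 2.22% were lower. Without each polyIC culture in turn these counts of lower genes ran from 3 to 16 and from 4 to 12. The largest fall was in Tmem255a, a membrane protein gene on chromosome X (38196573 to 38252439), with 3.13, 2.17, 0.771, 0.702, 0.717 and 0.781 CPM against 0.749 to 340.3 CPM and a median of 39.8 CPM. The log2 difference was -4.21 ± 0.68 (adjusted p = 0.000335), and it passed in all 13 limma alternatives. The untreated range nevertheless reached down to the polyIC values. Fem1c, which encodes a substrate receptor of a ubiquitin ligase, held 72.3, 94, 2.89, 1.93, 1.79 and 0 CPM against 10.5 to 283 CPM (-3.42 ± 0.63, adjusted p = 0.00155). Here the fall was on plate D, where the difference was -4.80, and was slight on plate B, at -0.40. Sun2, which links the nuclear envelope to the cytoskeleton, showed that pattern too, with 51.8, 32.6, 4.05, 2.81, 3.41 and 0.781 CPM against 13.1 to 204 CPM (-3.06 ± 0.45, adjusted p = 0.000143).

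The other named falls ranged from -3.44 to -3.05 on the log2 scale. Pcdhga8, a protocadherin gene whose 3′ exons are shared with its cluster, fell by 3.37 ± 0.52 (adjusted p = 0.000266) and Cad, the enzyme that starts pyrimidine synthesis, by 3.17 ± 0.61 (adjusted p = 0.0024). Mrc1, the mannose receptor, held 15.6, 104, 0.386, 0.175, 16.7 and 0 CPM against 5.49 to 236 CPM (-3.15 ± 0.77, adjusted p = 0.0172, passing in 9 of 13 alternatives). Untreated Mrc1 was 129.6 to 236 CPM on plate B and 5.49 to 28.6 CPM on plate D, so that replicate 2 was below its own plate and yet above all untreated cultures of the other. Rgs7bp, Pianp, Zfp532 and Gm10401 completed the 10. In the endoplasmic reticulum chaperone list 2 of 10 fell and 0 rose, Manf (-1.38 ± 0.34, adjusted p = 0.0182) and Hsp90b1 (-1.03 ± 0.21, adjusted p = 0.00455), and the count was 1 without replicates 1, 5 or 6 in turn and 0 without replicate 3. Ddit3, a stress-induced transcription factor, rose by 2.02 ± 0.49 (adjusted p = 0.0156), which was lost without replicate 4 or replicate 6.

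The study uses hub genes, each standing for a module of co-expressed genes, and 4 of them (Ifit3, Naaa, Clec4e and Irak3) were compared together with the inflammatory markers Tnf and Il1b by the exact two-sided rank-sum test. Ifit3 gave an unadjusted p of 0.0231, an exact p of 0.128 when labels were permuted within plates, and an adjusted p of 0.303 in the rank-sum test over all genes, so it did not pass by ranks. Naaa, a lysosomal hydrolase gene, was at 0.893, 2.17, 6.17, 0, 0 and 0 CPM against 0 to 14.3 CPM, with an exact p of 0.159 over all cultures and 0.0155 within plates. Clec4e (exact p = 0.827), Irak3 (exact p = 0.575), Tnf (exact p = 0.391) and Il1b (exact p = 0.897) did not pass either. Of the markers of the IL4 response, Mrc1 fell as given above, Arg1 was at most 1.05 CPM with polyIC, and Retnla, Chil3, Mgl2, Clec10a and Ccl17 were listed at 0 in all 6 polyIC cultures. Untreated cultures were also low in these, with medians of 0 CPM for Retnla, Chil3 and Mgl2 and 0.609 CPM for Clec10a, and Ccl17 at 0 in all 25.

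PolyIC at 24 h had been measured in 8 cultures on other plates and, per the file headers, from other sources of cells, so duration, cell source and plate cannot be told apart. Depth differed too, with a median of 14.1 M mapped reads with polyIC at 24 h and 3.71 M at 72 h. In untreated cultures the medians were 5.36 M and 5.89 M. In its own fit 1774 of 11496 genes passed at 24 h, 15.4%, with 493 higher (4.29%) and 1281 lower (11.1%). The difference between the 72 h and the 24 h change was then tested directly as an interaction. Of 12382 genes, 585 passed, 4.72%, with 282 where the 72 h change was above that at 24 h (2.28%) and 303 where it was below (2.45%). Centring each culture on the median of shared genes gave 735, of which 170 were above and 565 below, and the count without replicate 1 at 72 h was 878.

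**Figure D3:**
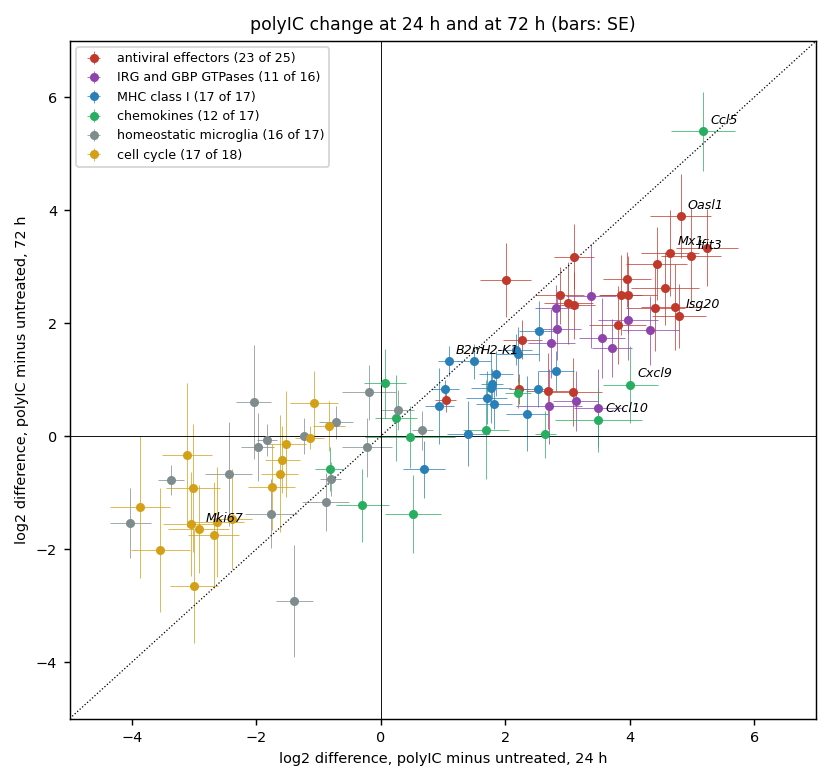
Log2 difference of polyIC from untreated cultures at 24 h (horizontal axis) and 72 h (vertical axis) for the genes of 6 lists, with lines of 1 SE. Most antiviral effector genes lie right of zero and above it, and the homeostatic genes have a median of -0.20 at 72 h and -1.32 at 24 h.

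The changes in the interferon lists were larger at 24 h, and the share of their genes that passed the interaction test varied by list. All 25 antiviral effectors passed as higher at 24 h, with a median of 3.91, and 3 of the 25 had a 72 h change called below the 24 h change. Their median interaction was -1.40, against -0.02 over all genes. In the Ifi200 and Schlafen families 3 of 12 were called below, and among the ISG15, ubiquitin and ADP-ribose enzymes 2 of 12. Ifit3 and Mx1 had interactions of -1.79 ± 0.94 (adjusted p = 0.293) and -1.40 ± 0.86 (adjusted p = 0.398). For Ccl5 the changes were 5.18 ± 0.51 at 24 h and 5.39 ± 0.70 at 72 h, a difference of 0.21 ± 0.87 (adjusted p = 0.933). At 24 h Ccl5 held 902 to 37265 CPM with a median of 14765 CPM, against 42.1 to 1279 CPM untreated. Irf7 changed by 4.74 ± 0.47 at 24 h, and the interaction of -0.92 ± 0.72 had an adjusted p of 0.538. B2m was likewise near its 24 h change, at 1.09 ± 0.17 (interaction 0.24 ± 0.30, adjusted p = 0.734), and so was Xaf1 at 3.11 ± 0.32 (interaction 0.07 ± 0.62, adjusted p = 0.971). Except for B2m, these wide errors leave room for differences of more than 1 on the log2 scale.

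More of the guanylate-binding proteins and immunity-related GTPases than of the antiviral effectors were called below in the interaction, and this difference between lists was not tested. All 16 passed as higher at 24 h, with a median of 3.21. For 9 of 16 the 72 h change was called lower, against 2.45% of all genes. Their median interaction was -2.17, and that of the antiviral effectors was -1.40. Among MHC class I genes 15 of 17 were higher at 24 h and 2 of 17 had a 72 h change called lower. In the chemokine list 7 of 15 tested were higher at 24 h and 5 of 16 fell below in the interaction. Cxcl11, a ligand of the receptor Cxcr3, was the largest of these, with 2.5 to 238 CPM and a median of 131 CPM at 24 h, against 0 to 8.19 CPM untreated. At 72 h it was listed at 0 in all 6 polyIC cultures and at 0 to 4.13 CPM in untreated ones, an interaction of -5.64 ± 0.62 (adjusted p = 4.25e-10). Cxcl10 had a median of 209.5 CPM at 24 h and 1.86 CPM at 72 h, an interaction of -3.20 ± 0.99 (adjusted p = 0.04).

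**Figure D4:**
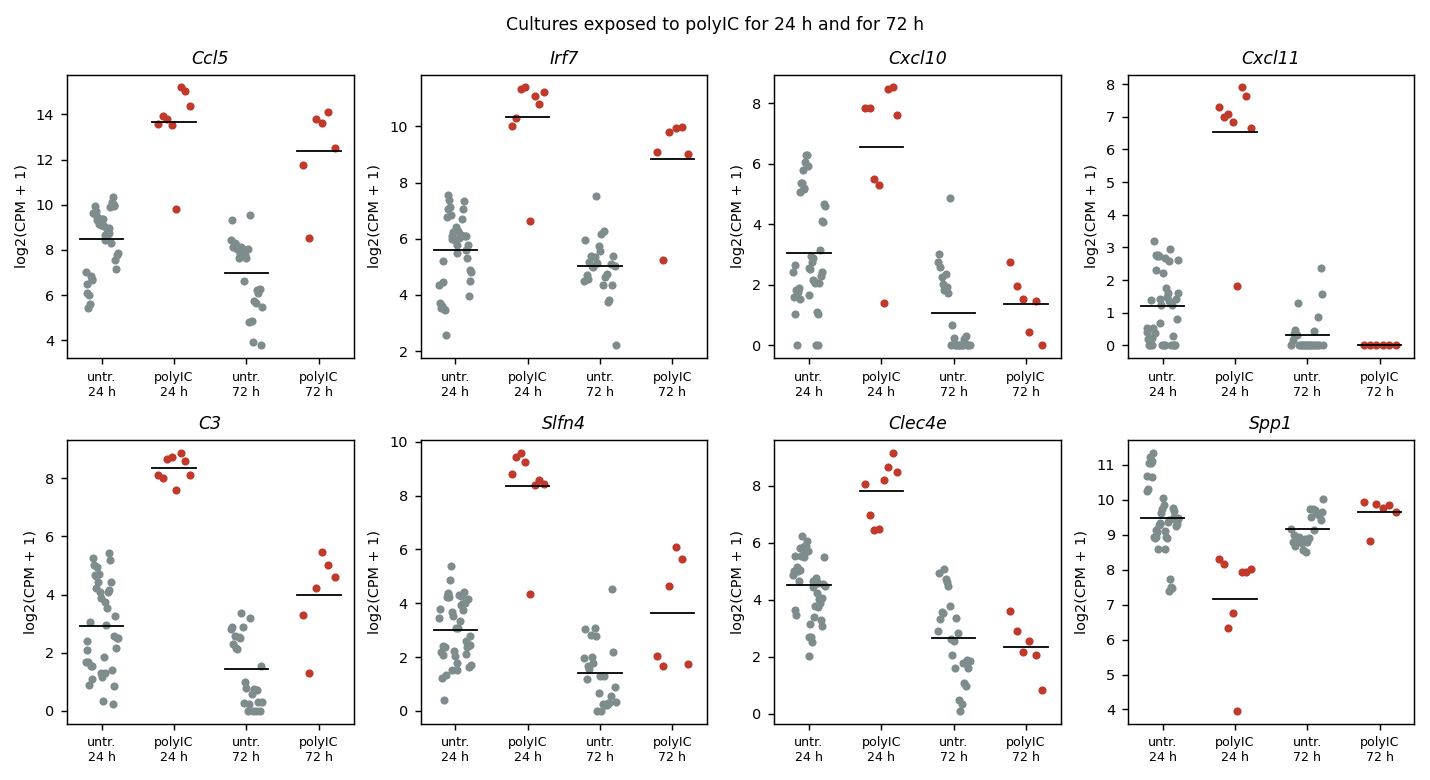
Level of 8 genes in each culture, as log2(CPM + 1) on the vertical axis, for untreated and polyIC cultures at 24 h and 72 h. Ccl5 and Irf7 stay above untreated cultures at both times in most polyIC cultures, Cxcl11 has a median of 131 CPM at 24 h and is at 0 at 72 h, and Spp1 has a median of 243 CPM at 24 h, where untreated cultures have 674 CPM, and lies inside the untreated range at 72 h.

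Further genes were high in the polyIC cultures at 24 h and not in the separate ones at 72 h. Sema4a, a semaphorin that acts on T cells, was at 208 to 1358 CPM at 24 h and at 12.5, 2.17, 2.51, 1.4, 1.79 and 2.34 CPM at 72 h (interaction -5.18 ± 0.91, adjusted p = 6.76e-05). Susd2 was at 23.2 to 463 CPM at 24 h and at 0 in all 6 cultures at 72 h (-5.16 ± 0.61, adjusted p = 1.97e-09). Klrk1, a receptor of natural killer cells, had a median of 79.9 CPM at 24 h and was at 0 in all 6 at 72 h (-4.63 ± 0.60, adjusted p = 4.54e-08). Ass1, which makes argininosuccinate, was at 58.4 to 141 CPM at 24 h and at most 1.45 CPM at 72 h (-4.37 ± 0.59, adjusted p = 8.92e-08). Clec4e, a receptor for mycobacterial lipid and for signals of cell death, was at 87.7 to 574 CPM at 24 h and at most 11.2 CPM at 72 h (-3.60 ± 0.71, adjusted p = 0.000484). C3 remained higher than untreated at 72 h, but its change was smaller by 2.87 ± 0.80 (adjusted p = 0.0193), and that of Slfn4 by 3.09 ± 0.77 (adjusted p = 0.00743).

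The opposite direction was led by genes that polyIC lowered at 24 h and that were near untreated levels at 72 h. Cd28 had a median of 1.09 CPM at 24 h with polyIC and 38 CPM without, and at 72 h it held 42.4, 76, 2.51, 170.3, 6.99 and 28.1 CPM against 0 to 258 CPM (interaction 4.50 ± 1.15, adjusted p = 0.00957). Serpine2, a protease inhibitor, was at 0 to 21 CPM at 24 h and at 35.9 to 409 CPM at 72 h (3.84 ± 0.82, adjusted p = 0.00147). The transporter gene Slco2b1 went the same way (3.35 ± 0.91, adjusted p = 0.0165). The unnamed transcripts Gm37746 (3.42 ± 0.99, adjusted p = 0.0249) and RP24-121I11.1 (3.23 ± 0.85, adjusted p = 0.0119) passed the interaction test in another way, with medians of 107 and 29.1 CPM with polyIC at 72 h against 1.9 and 2.75 CPM untreated, while neither passed at 24 h or at 72 h alone. Of 14 genes of disease-associated microglia, a state described around plaques, 7 were lower and 2 higher at 24 h, none passed in either direction at 72 h and for 6 the 72 h change was called higher. Spp1, which encodes osteopontin and was named after its values were seen, was at 14.6 to 314 CPM at 24 h against 168 to 2607 CPM untreated. At 72 h it held 973, 451, 948, 868, 929 and 803 CPM against 363 to 1038 CPM (interaction 2.78 ± 0.51, adjusted p = 0.000129). Of 17 homeostatic microglial genes 0 passed at 72 h, against 9 of 16 lower at 24 h, and for 4 the 72 h change was called higher.

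Type I interferon given directly raised the antiviral genes more than polyIC did. PolyIC cultures were compared with the mean of the IFNa and IFNb groups, and 286 of 11491 genes differed, 2.49%, with 52 higher in polyIC (0.453%) and 234 lower (2.04%). Of the 25 antiviral effectors 15 were lower in polyIC cultures and 0 higher. Ifit3 was at 1696 to 4916 CPM with IFNa and at 3968 to 5860.1 CPM with IFNb, against 16.4 to 2519 CPM with polyIC (-3.03 ± 0.86, adjusted p = 0.0439). Mx1 was at 101 to 675 CPM and 494 to 588 CPM (-2.87 ± 0.77, adjusted p = 0.0327), and Isg15, a ubiquitin-like modifier named after its values were seen, at 79.6 to 413 CPM and 415 to 596 CPM against 7.96 to 95.3 CPM (-2.83 ± 0.70, adjusted p = 0.0189). For each of the 3 genes every IFNb culture was above every polyIC culture. Irf7 (-1.58 ± 0.51, adjusted p = 0.0766) and B2m (-0.53 ± 0.27, adjusted p = 0.266) missed the threshold.

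**Figure D5:**
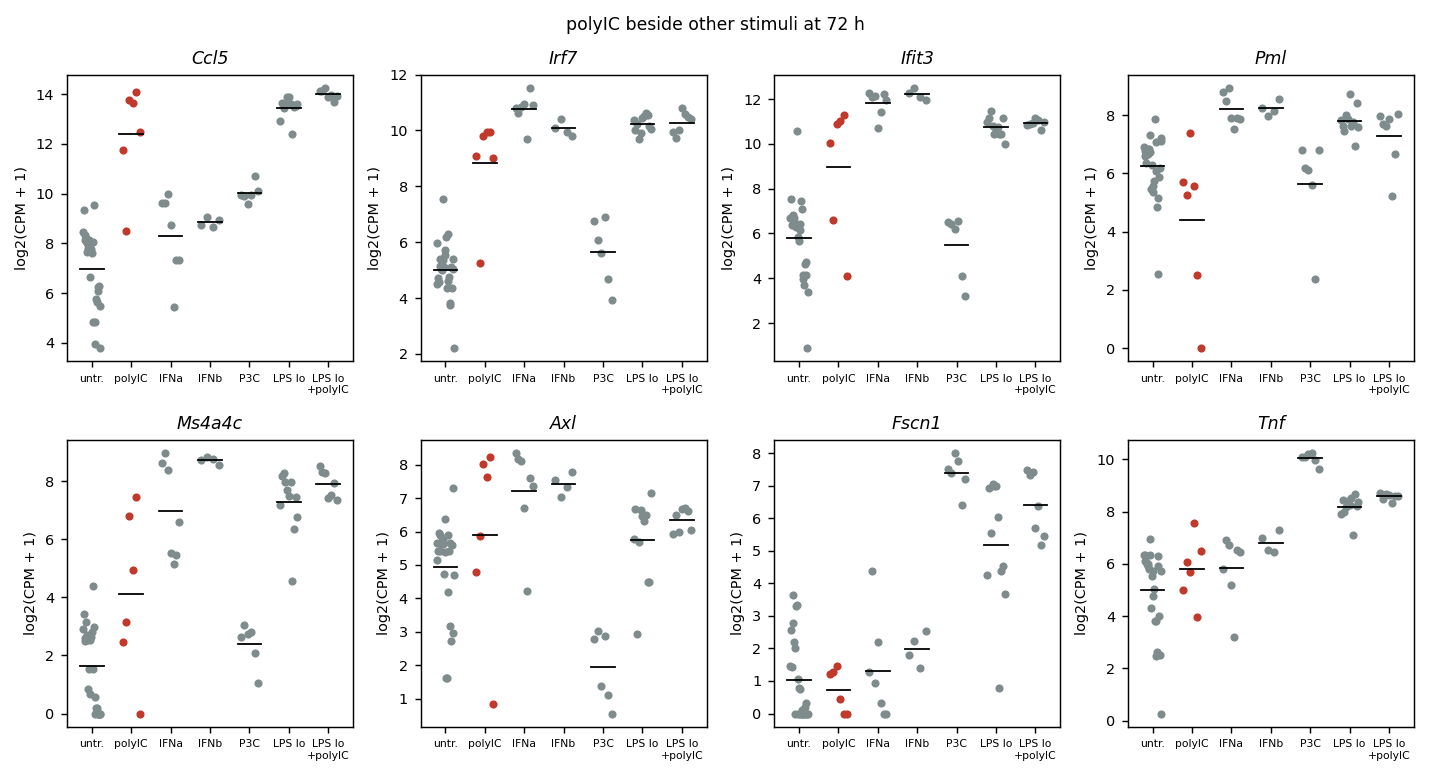
Level of 8 genes in 72 h cultures that were untreated or had received polyIC, IFNa, IFNb, P3C, low LPS, or low LPS with polyIC, as log2(CPM + 1) on the vertical axis. Each point is a culture. Ccl5 is high with polyIC and LPS and not with interferon, Pml and Ms4a4c are highest with interferon, and Tnf and Fscn1 are high with P3C.

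Ccl5 went the other way. IFNa cultures held 42.7 to 998 CPM and IFNb cultures 402 to 530.1 CPM, so 5 of 6 polyIC cultures were above all 11 interferon cultures, and the difference was 3.81 ± 0.77 (adjusted p = 0.00502). The other 4 genes with the largest excess in polyIC were of low level: Gm9825 (2.93 ± 0.83, adjusted p = 0.0436), RP24-127J3.1 (2.89 ± 0.62, adjusted p = 0.00681), Gm27896 (2.76 ± 0.66, adjusted p = 0.0153) and the class I gene H2-M2 (2.73 ± 0.69, adjusted p = 0.0239). Lower in polyIC were Gm14446 (-5.71 ± 0.62, adjusted p = 5.52e-08) and Pml, the scaffold of nuclear bodies, at 51.4, 37.6, 165, 46.5, 4.7 and 0 CPM against 183 to 491 CPM with IFNa and 252 to 371 CPM with IFNb (-3.81 ± 0.63, adjusted p = 0.000365). For Pml no polyIC culture reached the interferon range. Slamf9 (-3.72 ± 0.64, adjusted p = 0.000576), Ms4a4c (-3.71 ± 0.81, adjusted p = 0.00747) and P2ry14, a receptor for UDP-glucose (-3.63 ± 0.89, adjusted p = 0.0178), were also lower. The 7 IFNa cultures were on plates without polyIC and the 4 IFNb cultures shared plate B with replicates 1 and 2. The count was 142 with plate as a term, 112 without polyIC replicate 6, 559 without replicate 2, 647 without replicate 1 and 149 to 170 without each IFNb culture in turn.

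Against P3C the polyIC cultures differed in 915 of 11373 genes, 8.05%, with 218 higher (1.92%) and 697 lower (6.13%). Of 23 antiviral effectors tested 9 were higher with polyIC and 0 lower. Oasl1 was at 1.24 to 16.7 CPM with P3C (4.06 ± 0.92, adjusted p = 0.00266), Irf7 at 14.3 to 118 CPM (3.18 ± 0.64, adjusted p = 0.000693) and Ifit3 at 8.22 to 93.7 CPM (3.49 ± 1.05, adjusted p = 0.03). For Oasl1 and Irf7 all polyIC cultures but replicate 2 were above the P3C range. Ccl5 was at 760.3 to 1669 CPM with P3C, and its difference of 2.35 ± 0.83 missed the threshold (adjusted p = 0.0699). Inflammatory genes were lower with polyIC, with 9 of 12 inflammatory cytokines lower and 1 higher, 9 of 15 NF-kB genes lower and 6 of 13 chemokines lower. Tnf was at 797 to 1214 CPM with P3C, above all 6 polyIC cultures (-4.24 ± 0.78, adjusted p = 0.000162), and Clec4e at 113 to 236 CPM (-5.15 ± 0.74, adjusted p = 2.41e-06).

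The largest differences from P3C were in other kinds of genes. Lox, which cross-links collagen, was at 352 to 869 CPM with P3C and at most 5.02 CPM with polyIC (-7.49 ± 0.59, adjusted p = 1.26e-12). Fscn1, an actin-bundling protein, was at 83.2 to 257 CPM and at most 1.74 CPM (-6.65 ± 0.66, adjusted p = 4.84e-10), and Adm, the vasodilator peptide adrenomedullin, at 63.8 to 109 CPM and at most 1.79 CPM (-6.02 ± 0.47, adjusted p = 1.21e-12). No polyIC culture came near the P3C range of any of these 3. Slc13a3 (-5.98 ± 0.71, adjusted p = 4.16e-08) and Tmem176a (-5.94 ± 1.35, adjusted p = 0.00265) were lower as well. Besides Oasl1, the genes with the largest excess were Rgs1, a regulator of G-protein signalling, at 93.3 to 347 CPM with polyIC and 0.565 to 13.5 CPM with P3C (4.77 ± 0.50, adjusted p = 1.52e-09), Serpinb6b (4.26 ± 0.59, adjusted p = 1.08e-06), the serotonin receptor gene Htr2b (4.02 ± 0.49, adjusted p = 6.66e-08) and the receptor tyrosine kinase gene Axl (3.95 ± 0.90, adjusted p = 0.00288). In the comparison with untreated cultures none of Serpinb6b, Htr2b and Axl passed.

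PolyIC added to low LPS changed no gene past the threshold. Of 9692 genes 0 passed in limma, and 646 had an unadjusted p under 0.05. Ccl5 was at 13087 to 19694 CPM in the 7 cultures with both and at 5350.5 to 15214 CPM in the 11 with low LPS alone, a log2 difference of 0.54 ± 0.17 (adjusted p = 0.724). Irf7 differed by 0.04 ± 0.16 (adjusted p = 0.961) and Ifit3 by 0.17 ± 0.16 (adjusted p = 0.842). Cultures with low LPS alone held 831 to 1580.4 CPM of Irf7 and 1019.6 to 2839 CPM of Ifit3, ranges that include the 3 middle wells with polyIC. The errors of these differences were 0.16 to 0.23 for Ccl5, Irf7, Ifit3 and Mx1, smaller than those of polyIC alone against untreated cultures, which were 0.51 to 0.85.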

How the data were processed

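Libraries were made with a 3′-end kit after pooled T7 amplification and sequenced by the authors, who quantified reads with salmon 0.7.1 on Ensembl transcripts, summed them per gene and divided by all mapped reads. The deposited values are CPM, although the paper calls them TPM. Depth was read from the step between low values. Between 72.3% and 87.5% of low values lay within 0.1 of whole reads, so counts were not rebuilt, and precision at low CPM is limited by few reads. limma 3.58.1 in R 4.3.3 (lmFit, eBayes with trend) was run on log2(CPM + 1), which understates changes of low genes, over genes above 5 CPM in at least 4 cultures. A gene was called at an adjusted p below 0.05 where it also differed by 1 or more on the log2 scale. Figures and exact tests used Python 3.11.15, and the tests were checked on simulated data. Named genes were the 15 largest rises and 10 largest falls with the same sign on both plates and a mean of 5 CPM or more, the hub and IL4 genes, up to 4 called genes per list, and the 5 largest differences each way elsewhere. Groups came from the labels. Members, lists and rules were chosen with earlier results of these data known. Alternatives changed the pseudocount, filter, fold minimum, plate or pool term, centring, controls, spread and cultures. Positions are GENCODE M21 on GRCm38, while the submitters' processing notes name mm8. The culture table has 488 further columns, outside these comparisons, that were not used, nor was the table of microglia from mice. Some genes of the lists are not reported here.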

Additional observations from a re-analysis of the deposited data

Results flagged for a closer look

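A single culture stood far from the other 5 of its group in 5 of 56 genes examined, and chance gives this in about 1 in 20 groups. Replicate 2 was the lowest polyIC culture in Irf7 at 36.9 CPM, in Rsad2 at 18.8 CPM and in Usp18 at 15.2 CPM, and the highest in Zfp532 at 11.6 CPM. Replicate 6 was the lowest in Irf3 at 0.781 CPM. In 4 of the 5 genes the culture was the same one, the shallower of the pair on plate B.

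The polyIC change differed between 72 h and 24 h in 585 genes by the interaction test. The 72 h change was above that at 24 h for Cd28 (4.50 on the log2 scale), Serpine2 (3.84), Gm37746 (3.42), Slco2b1 (3.35) and RP24-121I11.1 (3.23). It was below for Cxcl11 (-5.64), Sema4a (-5.18), Susd2 (-5.16), Klrk1 (-4.63) and Ass1 (-4.37). Duration, cell source and plate cannot be told apart in these values.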

How the results depend on the processing

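The count of genes that differed from untreated cultures at 72 h, 341, was 211 with no filter on low values, 513 with library pool as a term (50 higher and 463 lower, of which 12 and 74 were shared with the 341, and where replicates 3 to 5 had no untreated culture in their pool), 539 with the spread shared over all 72 h conditions, and 0 by a rank-sum test over all genes, where 1541 had an unadjusted p under 0.05. Leaving out each polyIC culture gave 181 to 833. Among alternatives chosen after seeing the data it was 579 with all conditions and pool as a term, and 779 without polyIC replicate 2 and untreated replicate 10. With plate as a term it was 263, of which 54 higher and 126 lower genes were shared with the 341, and a pseudocount of 0.1 gave 404, of which 66 were higher and 338 lower. The count of 585 between durations was 1223 with the pool term and 489 to 878 when polyIC cultures were left out. The count of 286 against interferon was 169 with no filter, 142 with plate, 572 with pool, 112 to 647 without each polyIC culture, 136 without replicates 2 and 6, and 149 to 170 without each IFNb culture. With low LPS the 0 became 1 without replicate 3 of the combination. The difference in Ifit3, 3.19, had an exact p of 0.0231 by ranks. Within plates it was 3.51 (exact p = 0.128), and without each polyIC culture it ranged from 2.73 to 4.16, with exact p-values over 0.05 without replicates 1, 3, 4 or 5. That of Naaa was -1.21 within plates (exact p = 0.0155) and -1.18 to -0.62 without each polyIC culture, at -1.18 without replicate 3 (exact p = 0.0415). Clec4e ranged from -0.54 without replicate 1 to 0.0100 without replicate 6, and Il1b to -0.13 within plates, -0.0866 with plate, -0.10 with pool and -0.39 against untreated cultures of the same plates, none of them past the threshold. The cause of these shifts was not tested except where the setting leaves out cultures or genes. No paired analysis was possible because the labels give no replicate numbers. Depth of 1.28 M limits replicate 6 most.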

Other observations

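Proliferation genes behaved differently on the 2 plates. None of 17 tested passed at 72 h, with a median log2 difference of -0.92, against 17 of 18 lower at 24 h. In replicates 1 and 2 their median was -2.99 and -2.28 relative to the untreated cultures of plate B, with 16 and 15 of 18 genes below all of those cultures, against 3219 and 3335 of all 11052 genes tested. In replicates 3 to 6 on plate D the median was 0.93, 0.17, 0.73 and -0.14. Top2a held 20.7, 14.5, 5.04, 3.46, 119 and 352 CPM against 0 to 463 CPM.

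Cholesterol synthesis showed part of this pattern. Of 14 genes tested 1 was lower, Fdft1, which makes squalene, at -2.10 ± 0.47 (limma adjusted p = 0.00918), against 9 lower at 24 h. In replicate 1 the median was -1.65 relative to its plate, and 12 of 15 genes were below all untreated cultures there, against the 3219 of 11052 given above. In replicates 2 to 6 it was between -0.75 and 0.13.

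The metallothionein genes Mt1 and Mt2, chosen after their values were seen, were split by plate. Mt2 held 94.2, 97.6, 0, 1.4, 0 and 0 CPM against 8.99 to 236 CPM, so it was higher than the untreated mean on plate B (1.25) and lower on plate D (-4.55). The pooled difference was -3.06 ± 0.69 (limma adjusted p = 0.00918).

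Of 148 genes that the study groups as a module of the interferon response, chosen on samples of this series and so no independent evidence of direction, 142 were tested and 39 were higher and 0 lower. The count was 57 without replicate 2, 45 without replicate 1, 22, 20 and 18 without replicates 3, 4 and 5, 39 without replicate 6 and 28 with plate as a term. In each middle well of plate D between 112 and 116 of the 148 were above all untreated cultures of the plate, in replicate 6 this was 39, in replicate 1 it was 32 and in replicate 2 it was 8. Over all 11052 tested genes the share above was 20.9% to 22.9% in the middle wells. It was 19.6% in replicate 6, 15.6% in replicate 1 and 15.1% in replicate 2. In replicate 6, 31 of the 148 were below all untreated cultures of the plate, against 2907 of the 11052.

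Disease-associated microglial genes were higher with polyIC than with P3C in 10 of 12 tested, against 1.92% of all genes in that comparison. Against untreated cultures at 72 h 0 of 12 passed in either direction, with a median log2 difference of 0.10. Apoe, chosen after its values were seen, was at 23772 to 38886 CPM with polyIC, at 14925 to 56911 CPM untreated and at 2391 to 5108 CPM with P3C (3.01 ± 0.36 against P3C, limma adjusted p = 3.81e-08).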
